A study of Homo sapiens with 6 samples.

Results

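The genes of prostaglandin metabolism described here are 10 of the 20263 genes counted in a study of LINC01518, a long non-coding RNA, in a prostate cancer cell line. They were taken by symbol, all 10 were found, and 7 had enough counts to be tested. PTGS1, the gene of cyclooxygenase-1, was chosen by its high level and its higher counts with overexpression in these same libraries, so its values are a description with no test. The other 9 were taken for their place in the same pathway. RNA sequencing of total RNA was done on 3 libraries of cells given a LINC01518 overexpression vector and 3 libraries of cells given an empty vector. The labels give the cells as lncap, an established line from human prostate cancer that is described there as hormone-dependent, and all 6 libraries share this background. KLK3, KLK2, TMPRSS2 and FOLH1, genes that define this line, had 0 counts in all 6 libraries, which goes against the label. The sources used here name neither the promoter of the vector nor the time after transfection, and do not say whether the cells were pools or clones. MEG3 is named as the overexpressed RNA in the series' design text, but the title and sample labels give LINC01518, which is used here. The level of neither RNA was checked, since they are not analysed here.

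Prostaglandins and thromboxane are short-lived lipid signals made from arachidonic acid. Phospholipase A2 frees arachidonic acid from membranes, a cyclooxygenase turns it into the unstable intermediate prostaglandin H2, and a terminal synthase turns that into prostaglandin E2, D2, F2-alpha, prostacyclin or thromboxane. Cells sense these products through G protein-coupled receptors and destroy them by oxidation and reduction. PTGS1 is known as the cyclooxygenase that many tissues keep on at a steady level, and PTGS2 as the one that stimuli induce.

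In these cells PTGS1 was the dominant cyclooxygenase gene by far and stood 1.52-fold higher with LINC01518 overexpression. PTGR1, which encodes a reductase that inactivates prostaglandins and other lipids, rose 1.22-fold and was the 1 other member of 6 tested that passed the test (edgeR adjusted p under 0.05), which 3.57% of all genes tested passed in that direction. Its call ended in 5 of the 6 fits that left out 1 library. PTGS2, the phospholipase gene PLA2G4A and the terminal synthase genes PTGES, PTGES2 and PTGDS did not pass it. The genes of prostacyclin synthase, thromboxane synthase and the main prostaglandin dehydrogenase were close to absent. Outside the members, ALOX15, ALOX12B and AKR1C3 had the largest increases among the eicosanoid genes that passed. Leaving out 1 library ended the call of ALOX12B in all 6 fits, and those of ALOX15 and AKR1C3 in 4 of the 6 each.

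Upstream sequences are shown for the 2 cyclooxygenase genes because they carry out the same step and PTGS1 was abundant while PTGS2 was scarce. They are the 250 bases before each annotated start in RefSeq (build GRCh38.p14), which lists 2 starts for PTGS1. Capitals mark exact matches, on either strand, to TATAAA (the core promoter element bound by the TATA-binding protein), GGGCGG (core of a GC box), CGTCA (core of a cAMP response element) or TGACNNNGC (core of an antioxidant response element), and the marked matches do not overlap.
PTGS1 first start, chr9:122370283-122370532, plus strand: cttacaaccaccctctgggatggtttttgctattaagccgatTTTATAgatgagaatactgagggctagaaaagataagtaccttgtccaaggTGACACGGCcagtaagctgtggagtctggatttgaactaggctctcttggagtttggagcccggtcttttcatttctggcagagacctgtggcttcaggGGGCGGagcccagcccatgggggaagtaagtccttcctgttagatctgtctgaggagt
PTGS1 second start, chr9:122375052-122375301, plus strand: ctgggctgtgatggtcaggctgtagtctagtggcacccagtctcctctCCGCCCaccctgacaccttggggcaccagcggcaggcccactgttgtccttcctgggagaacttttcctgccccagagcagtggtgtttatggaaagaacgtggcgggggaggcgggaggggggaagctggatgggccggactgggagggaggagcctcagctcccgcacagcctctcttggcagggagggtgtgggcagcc
PTGS2, chr1:186680424-186680673, minus strand: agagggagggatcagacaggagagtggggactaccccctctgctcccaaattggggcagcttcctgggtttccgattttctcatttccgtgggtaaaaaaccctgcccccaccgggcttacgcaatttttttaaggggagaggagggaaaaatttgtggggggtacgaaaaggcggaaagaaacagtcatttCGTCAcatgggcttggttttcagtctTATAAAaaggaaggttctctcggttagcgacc
The PTGS2 window holds TATAAA on its own strand 32 to 27 bases before the start and CGTCA at 58 to 54, and 52 of its bases lie in an annotated exon of the lincRNA PACERR. The first PTGS1 window holds GGGCGG at 58 to 53, TGACACGGC at 157 to 149 and TATAAA on the other strand (shown as TTTATA) at 208 to 203. The second PTGS1 window holds GGGCGG on the other strand (shown as CCGCCC) at 202 to 197. Over 35116 promoter windows of this length, 10.7% held TATAAA, 42.6% GGGCGG, 21.2% CGTCA and 10.9% TGACNNNGC. The window of PTGR1 (chr9:111599432-111599681, minus strand) held none of these letters. Windows from RefSeq were used for 9 of the 10 members, all but PTGIS, and of these 13 windows 3 held TATAAA, 7 GGGCGG, 2 CGTCA and 4 TGACNNNGC. A match describes letters only, and the gene counts do not tell which start of PTGS1 was used.

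The 6 libraries held 38161544 to 42553688 counts each. CPM are counts scaled to a common library depth, with TMM factors applied except in the detection floor. That floor, the 3 counts which a count of 0 still allows, corresponded to 0.0705 to 0.0786 CPM and covers counting error only. Of 13543 genes tested with edgeR, 5.6% were called at an adjusted p under 0.05 in either direction, 3.57% higher and 2.03% lower with overexpression. For 31.4% of the genes tested, the ranges of the 2 groups did not overlap. Separate cultures are not stated in the labels, and the p-values therefore reflect only how these 6 libraries varied, possibly for technical reasons. Libraries of the same group differed from each other by more than sampling noise, with a chi-square per degree of freedom of 19.8 to 31.1. In bulk RNA, more cells with a transcript and more of it per cell cannot be told apart.

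Arachidonic acid release is served by PLA2G4A, which encodes the calcium-activated cytosolic phospholipase A2 (ENSG00000116711, chromosome 1, 186828953 to 186988981, GRCh38). PLA2G4A had 49.1, 45.4 and 44.5 CPM in the overexpression libraries, against 41.5, 43.6 and 41.5 CPM in the empty vector libraries. All 3 overexpression libraries lay above the empty vector ones, though the closest pair, at 44.5 and 43.6 CPM, nearly met. The log2 fold change was 0.14 (SE 0.063, edgeR adjusted p = 0.235), so PLA2G4A was not called. On the authors' TPM, which are scaled per length, the 2 groups of PLA2G4A values overlapped, at 29.9 to 32.9 TPM with overexpression and 28.0 to 30.4 TPM with empty vector.

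PTGS1 (ENSG00000095303, chromosome 9, 122370530 to 122395703, GRCh38) encodes the cyclooxygenase that makes prostaglandin H2. PTGS1 had 1423, 1415 and 1371 CPM in the overexpression libraries, against 915, 954 and 907 CPM in the empty vector libraries. All 3 overexpression libraries lay above the 3 empty vector ones, as the choice of the gene implies. The means were 1403 ± 28.0 CPM with overexpression and 925.5 ± 25.3 CPM with empty vector (SD, n = 3 each), a log2 fold change of 0.60 (SE 0.043). PTGS1 took 0.140%, 0.140% and 0.136% of all counts of the overexpression libraries, against 0.0931%, 0.0964% and 0.0912% of the empty vector libraries. By mean TPM, it ranked 217th of the 20263 genes with overexpression and 321st with empty vector. Its log2 fold change lay between 0.55 and 0.62 under all 17 alternatives tried, the lower end coming from TPM.

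PTGS2 (ENSG00000073756, chromosome 1, 186671791 to 186680427), the inducible cyclooxygenase gene, was scarce beside it. PTGS2 had 13.2, 12.4 and 12.6 CPM in the overexpression libraries, against 11.1, 7.64 and 9.19 CPM in the empty vector libraries. The overexpression libraries were all higher and lay close together, with a coefficient of variation of 3.28%, while it was 18.7% among the empty vector libraries. The log2 fold change was 0.45 (SE 0.134, edgeR adjusted p = 0.0945), which was not called. PTGS2 passed the threshold with DESeq2 (adjusted p = 0.0478) and without empty vector replicate 1 (edgeR adjusted p = 0.0480), and in none of the other 15 alternatives.

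Per length, PTGS1 supplied 99.0%, 98.9% and 99.0% of the summed TPM of the 2 cyclooxygenase genes with overexpression, against 98.6%, 99.1% and 98.9% with empty vector. The ratio of PTGS1 TPM to PTGS2 TPM was 94.2 ± 3.43 with overexpression and 90.5 ± 19.2 with empty vector (SD, n = 3 each). The ranges of this ratio overlapped, at 90.3 to 96.7 with overexpression and 72.9 to 110.9 with empty vector. Since PTGS1 was chosen on these libraries, this ratio is a description too. Their summed level was 537 ± 11.0 TPM with overexpression and 366 ± 15.4 TPM with empty vector (SD, n = 3 each), nearly all of it PTGS1.

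**Figure D1:**
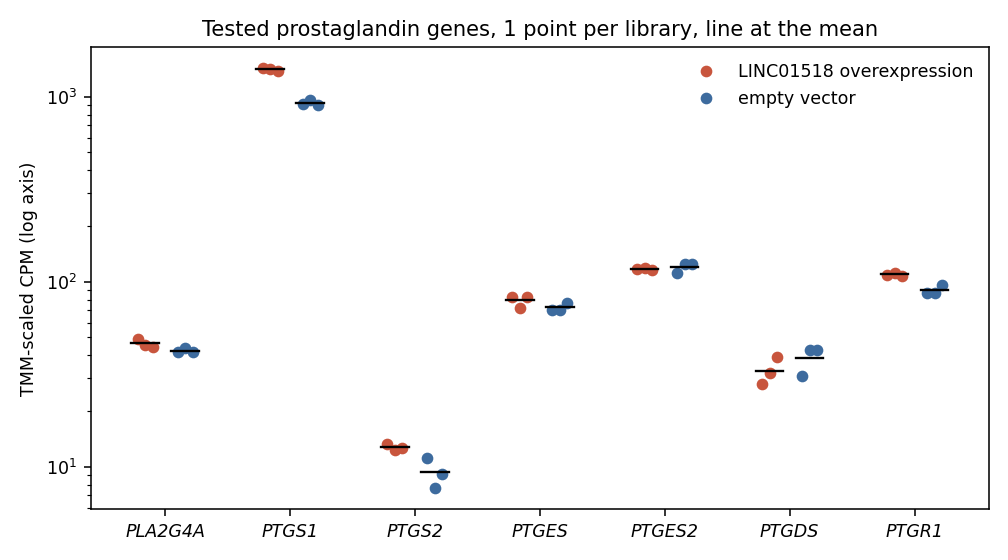
TMM-scaled CPM of the 7 tested members on a log axis, 1 point per library and a line at the mean of 3, with overexpression in red left of empty vector in blue. PTGS1 stands between 907 and 1423 CPM and PTGS2 between 7.64 and 13.2 CPM, and the groups are apart for PLA2G4A, PTGS1, PTGS2 and PTGR1.

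Prostaglandin E2 is made from the cyclooxygenase product by PTGES, the gene of the inducible microsomal synthase, and by PTGES2, the gene of a second membrane-associated synthase. PTGES (ENSG00000148344, chromosome 9, 129738331 to 129753047) had 83.2, 72.15 and 82.5 CPM in the overexpression libraries, against 70.3, 70.5 and 76.9 CPM in the empty vector libraries. Overexpression replicate 2 fell among the empty vector values, and the log2 fold change of 0.13 (SE 0.071) was not called (edgeR adjusted p = 0.316). PTGES2 (ENSG00000148334, chromosome 9, 128120693 to 128128462) had 116.7, 119.1 and 115.4 CPM in the overexpression libraries, against 111.9, 124.9 and 124.3 CPM in the empty vector libraries. The overexpression values of PTGES2 lay inside the empty vector range, at -0.04 on the log2 scale (SE 0.055), and PTGES2 was not called (edgeR adjusted p = 0.702).

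PTGDS encodes the lipocalin-type prostaglandin D synthase, which is also a secreted carrier of small lipids (ENSG00000107317, chromosome 9, 136975092 to 136981742). PTGDS had 28.1, 32.0 and 39.1 CPM in the overexpression libraries, against 30.9, 42.5 and 42.8 CPM in the empty vector libraries. Of the tested members it varied most within the overexpression group, with a coefficient of variation of 16.9%, and the groups overlapped. The log2 fold change was -0.23 (SE 0.170, edgeR adjusted p = 0.473). A second annotated gene, which overlaps PTGDS on the same strand, had 3 to 10 counts per library.

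The remaining terminal synthases were at the limit of detection. PTGIS, the prostacyclin synthase gene (ENSG00000124212, chromosome 20), had 0, 2 and 1 counts with overexpression and 0 in each empty vector library. TBXAS1, the thromboxane synthase gene (ENSG00000059377, chromosome 7), had 0 counts with overexpression and 2, 0 and 0 with empty vector. Differences in these 2 genes were not detectable at this depth.

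The breakdown genes stood at opposite ends. HPGD encodes 15-hydroxyprostaglandin dehydrogenase, the first step of prostaglandin inactivation (ENSG00000164120, chromosome 4), and had 15, 0 and 4 counts with overexpression against 12, 8 and 6 with empty vector. This was too few for the test, and no difference could be detected. PTGR1 encodes the reductase of the next step, which acts on 15-keto prostaglandins and also on leukotriene B4 (ENSG00000106853, chromosome 9, 111549722 to 111599893). PTGR1 had 109.3, 111.7 and 107.5 CPM in the overexpression libraries, against 86.45, 86.87 and 96.37 CPM in the empty vector libraries. All 3 overexpression libraries lay above the empty vector ones, on CPM and on TPM. The log2 fold change was 0.28 (SE 0.056, edgeR adjusted p = 0.0314). PTGR1 lost its call in 5 of the 6 fits without 1 library: its adjusted p was 0.0942, 0.10002 and 0.0904 without overexpression replicate 1, 2 or 3, 0.0768 and 0.0962 without empty vector replicate 1 or 2, and 0.0229 without empty vector replicate 3. On TPM the adjusted p was 0.0832 (limma-trend). ZNF483 overlaps PTGR1 on the opposite strand and had 0 to 4 counts per library.

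Of the 6 tested members other than PTGS1, 1 was called higher and 0 lower with edgeR, against 3.57% and 2.03% of all genes tested, and 2 of the 6 had an unadjusted p under 0.05, against 23.6% of all genes tested. The groups did not overlap for 3 of the 6, against 31.4% of all genes tested, and the median log2 fold change of the 6 was 0.13, against -0.0035 for all genes tested. By level per length, the order was PTGS1 (532 ± 10.7 TPM with overexpression and 362 ± 15.5 TPM with empty vector, SD, n = 3 each), PTGR1 (170 ± 3.71 TPM with overexpression and 145 ± 8.13 TPM with empty vector), PTGES2, PTGDS, PTGES, PLA2G4A, PTGS2, HPGD, TBXAS1 and PTGIS. Neighbours overlapped in their libraries' TPM for PTGES2 with PTGDS, PTGDS with PTGES, HPGD with TBXAS1 and TBXAS1 with PTGIS. On chromosome 9 lie 5 of the 10 members, where PTGS1, PTGES, PTGES2, PTGDS and PTGR1 are spread over a long stretch of the long arm.

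**Figure D2:**
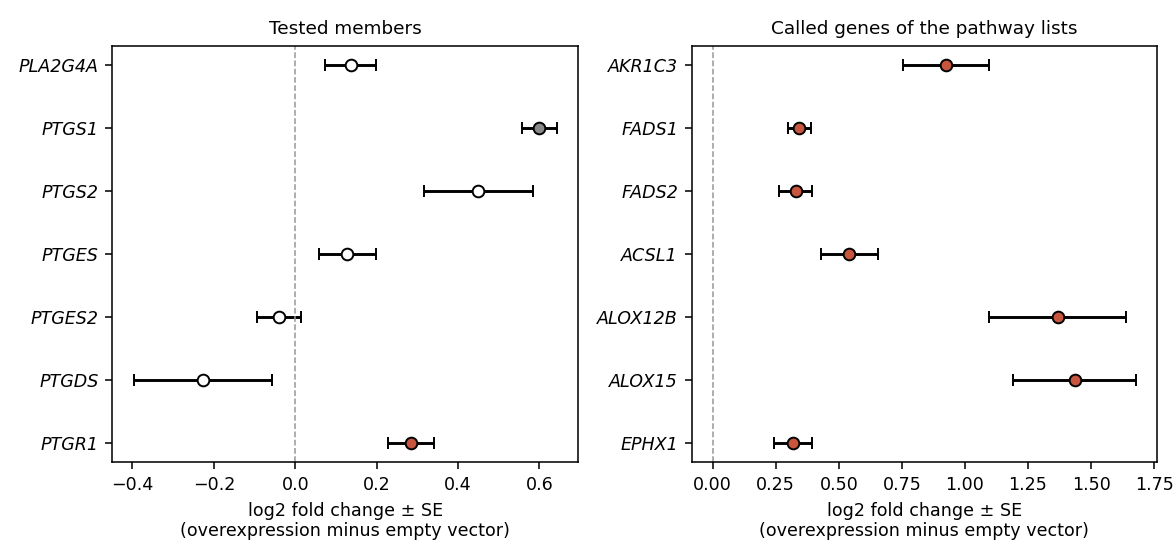
Log2 fold change of overexpression minus empty vector with its SE, on the left for the 7 tested members and on the right for the 7 called genes of the other eicosanoid lists. Filled red points were called, white points were not, and PTGS1 in grey has no test; PTGS1 is at 0.60, PTGR1 at 0.28 and ALOX15 at 1.43.

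Other enzymes that act on prostaglandin H2 or its products were listed as a group of 9, of which 8 were tested. Of these 8, 1 was called higher and 0 lower, against 3.57% and 2.03% of all genes tested. AKR1C3 encodes an aldo-keto reductase that makes prostaglandin F2-alpha from prostaglandin H2 and an isomer of it from prostaglandin D2. AKR1C3 had 32.7, 20.8 and 23.0 CPM in the overexpression libraries, against 13.7, 12.5 and 14.1 CPM in the empty vector libraries. The groups were apart, with overexpression replicate 1 well above the other two. The log2 fold change was 0.93 (SE 0.171, edgeR adjusted p = 0.0318), and close paralogs of the same family can share reads with it. The call was lost without overexpression replicate 3 (adjusted p = 0.0745) and without empty vector replicate 1, 2 or 3 (0.103, 0.105 and 0.0805). PTGES3, the gene of the cytosolic synthase and HSP90 co-chaperone p23, had the highest mean TPM of the list, at 210 ± 26.4 TPM with overexpression and 213 ± 20.7 TPM with empty vector (SD, n = 3 each). Its log2 fold change was -0.05 (SE 0.114, edgeR adjusted p = 0.836). HPGDS, the gene of the hematopoietic prostaglandin D synthase, had 0 counts in all 6 libraries.

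Summed levels per length were also compared along the pathway. The summed level of 10 enzyme genes acting on prostaglandin H2 or D2 (PTGES, PTGES2, PTGES3, PTGDS, HPGDS, PTGIS, TBXAS1, AKR1C3, AKR1B1 and PRXL2B) was 649 ± 15.7 TPM with overexpression and 644 ± 54.0 TPM with empty vector (SD, n = 3 each), with overlapping ranges. The 3 prostaglandin E synthase genes made up 61.8 ± 2.07% of that sum with overexpression and 63.0 ± 1.65% with empty vector. AKR1C3 made up 5.54%, 3.40% and 3.86% of it with overexpression, against 2.75%, 2.09% and 2.29% with empty vector. The level of PTGS1 relative to that sum was 0.843, 0.812 and 0.804 with overexpression, against 0.631, 0.557 and 0.509 with empty vector. This last difference follows from the choice of PTGS1 and is not a separate result.

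**Figure D3:**
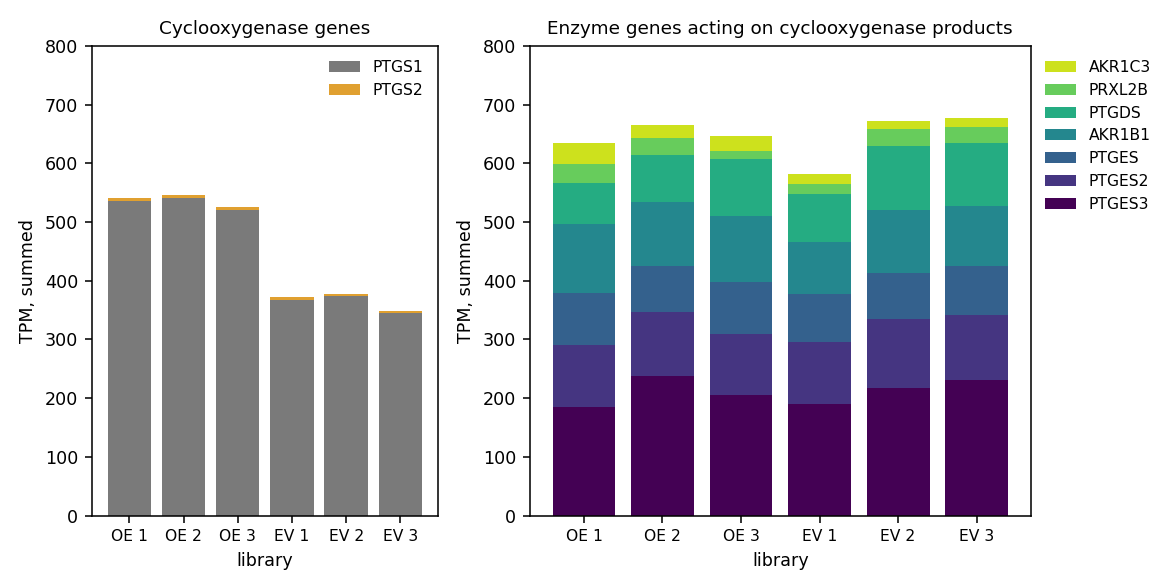
Summed TPM per library, overexpression (OE) left of empty vector (EV), for the 2 cyclooxygenase genes on the left and for the enzyme genes acting on their products on the right, where HPGDS, PTGIS and TBXAS1 are too low to draw. The cyclooxygenase bars reach 525 to 546 TPM with overexpression and 349 to 378 TPM with empty vector, while the right-hand bars overlap between groups.

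Receptors and transporters numbered 11, of which 5 were tested and 0 were called with edgeR. Of the 5, 1 had an unadjusted p under 0.05, against 23.6% of all genes tested. DESeq2 called 1 gene of this list, higher, limma-voom 0 and limma-trend on TPM 0. PTGER4, the gene of the prostaglandin E2 receptor EP4, and TBXA2R, the gene of the thromboxane receptor, supplied 98.3 ± 1.05% of the TPM of the 9 receptor genes with overexpression and 98.0 ± 0.971% with empty vector (SD, n = 3 each). PTGER4 had 18.05, 14.46 and 14.16 CPM in the overexpression libraries, against 16.7, 13.9 and 15.7 CPM in the empty vector libraries. TBXA2R had 16.0, 13.85 and 15.25 CPM in the overexpression libraries, against 13.37, 14.75 and 8.001 CPM in the empty vector libraries. Both overlapped between groups, at log2 fold changes of 0.01 and 0.32 (edgeR adjusted p = 0.965 and 0.440). PTGER3, PTGDR, PTGFR and PTGIR, receptor genes for prostaglandins E2, D2, F2-alpha and prostacyclin, had 0 counts in all 6 libraries. ABCC4, the gene of a pump that exports prostaglandins, had the highest TPM of the list, and its log2 fold change of 0.19 (SE 0.053) did not pass (edgeR adjusted p = 0.0750).

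Upstream, the other phospholipases A2 numbered 18, of which 7 were tested and 0 were called with edgeR. Of the 7, 2 had an unadjusted p under 0.05, against 23.6% of all genes tested. DESeq2 called 1 gene of this list, lower, limma-voom 0 and limma-trend on TPM 0. PLAAT3, the gene of an adipose phospholipase, was the most abundant of the list by TPM and stood at 0.14 on the log2 scale (SE 0.071, edgeR adjusted p = 0.261). PLA2G4B and PLA2G15 varied widely inside both groups, with 110, 264 and 86 counts of PLA2G4B with overexpression against 359, 452 and 75 with empty vector, and 1453, 1196 and 381 counts of PLA2G15 with overexpression against 981, 570 and 387 with empty vector. PLA2G4B overlaps the readthrough gene JMJD7-PLA2G4B, which had 0 to 410 counts per library, so reads may be divided between them.

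Of 16 genes that supply arachidonic acid or return it to membranes, 14 were tested. Of these 14, 3 were called higher and 0 lower, against 3.57% and 2.03% of all genes tested. FADS1, the gene of the desaturase that forms arachidonic acid, had 368, 363 and 376 CPM in the overexpression libraries, against 300.4, 295 and 277 CPM in the empty vector libraries. The groups of FADS1 were apart on CPM, at 0.34 on the log2 scale (SE 0.046, edgeR adjusted p = 0.00977), and overlapped on TPM, with 223, 230 and 201 TPM with overexpression against 205, 194 and 179 TPM with empty vector. On TPM the log2 fold change of FADS1 was 0.18 (limma-trend adjusted p = 0.231). FADS1 and FADS2, the gene of the desaturase that acts earlier in the same chain, have overlapping annotated spans on opposite strands, and the span of FADS2 also overlaps that of FEN1 on the same strand, which had 11161 to 15408 counts per library. How reads in these overlaps were assigned is not given in the sources used here. FADS2 had 26.8, 26.8 and 28.2 CPM in the overexpression libraries, against 21.1, 22.9 and 21.2 CPM in the empty vector libraries, which gave 0.33 on the log2 scale (SE 0.067, edgeR adjusted p = 0.0338). ACSL1, the gene of a long-chain acyl-CoA synthetase, had 6.83, 7.95 and 7.09 CPM in the overexpression libraries, against 5.34, 5.11 and 4.57 CPM in the empty vector libraries, which gave 0.54 on the log2 scale (SE 0.114, edgeR adjusted p = 0.0364). FADS1 kept its call in all 6 fits without 1 library. FADS2 and ACSL1 lost theirs in all 6, with adjusted p of 0.0617 to 0.121 and 0.0648 to 0.114. ELOVL5, an elongase gene of the same chain and the most abundant of the list by mean TPM, was at 0.10 (edgeR adjusted p = 0.212). ACSL4, whose enzyme activates arachidonic acid for return to membranes, was at -0.21 (edgeR adjusted p = 0.0865).

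The lipoxygenase branch uses the same arachidonic acid to make hydroxy acids and leukotrienes. Of 13 genes listed, 10 were tested, 2 were called higher and 0 lower, against 3.57% and 2.03% of all genes tested. The log2 fold change was negative for 6 of the 10, and its median was -0.056. ALOX15, the gene of the 15-lipoxygenase, had 6.02, 8.56 and 6.51 CPM in the overexpression libraries, against 1.78, 3.35 and 2.66 CPM in the empty vector libraries. The lowest overexpression library stood well above the highest empty vector one, and the log2 fold change was 1.43 (SE 0.243, edgeR adjusted p = 0.0222). ALOX12B, the gene of a 12R-lipoxygenase of skin, had 56, 39 and 37 counts with overexpression, against 14, 18 and 20 with empty vector. ALOX12B stood at 1.37 on the log2 scale (SE 0.273, edgeR adjusted p = 0.0320). ALOX15 lost its call in 4 of the 6 fits without 1 library, with adjusted p of 0.0521, 0.0582 and 0.0651 without overexpression replicate 1, 2 or 3 and 0.0662 without empty vector replicate 3. ALOX12B lost its call in all 6 (0.0539 to 0.113). LTA4H, the leukotriene A4 hydrolase gene and the most abundant of the list by TPM, was at -0.12 (edgeR adjusted p = 0.218), ALOX5 at -0.24 and the leukotriene B4 receptor gene LTB4R2 at -0.35 (edgeR adjusted p = 0.280 and 0.0872). ALOX5AP, whose product presents arachidonic acid to the 5-lipoxygenase, had 0 counts with overexpression and 2, 0 and 0 with empty vector.

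The list of cytochrome P450 and epoxide hydrolase genes held 13, of which 3 were tested. Of these 3, 1 was called higher and 0 lower, against 3.57% and 2.03% of all genes tested. EPHX1, the microsomal epoxide hydrolase gene and the most abundant of the list, was the 1 called, higher at 135, 113 and 126 CPM with overexpression against 100.2, 94.4 and 105.1 CPM with empty vector. Its log2 fold change was 0.32 (SE 0.074, edgeR adjusted p = 0.0489), and leaving out 1 library ended the call in 5 of 6 fits, with adjusted p of 0.137 and 0.136 without overexpression replicate 1 or 3 and 0.121, 0.139 and 0.0662 without empty vector replicate 1, 2 or 3. The call of EPHX1, at an adjusted p close to the threshold, was lost in 13 of the 17 alternatives.

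Over the 6 lists, 47 of 80 genes were tested and 7 were called higher and 0 lower, or 14.9% against 5.6% of all genes tested. The groups did not overlap for 40.4% of the 47, against 31.4% of all genes tested, and the median log2 fold change was 0.10, against -0.0035. These are descriptions of lists written with results of these data known, and the number of calls went down to 1 to 3 when 1 library was left out.

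**Figure D4:**
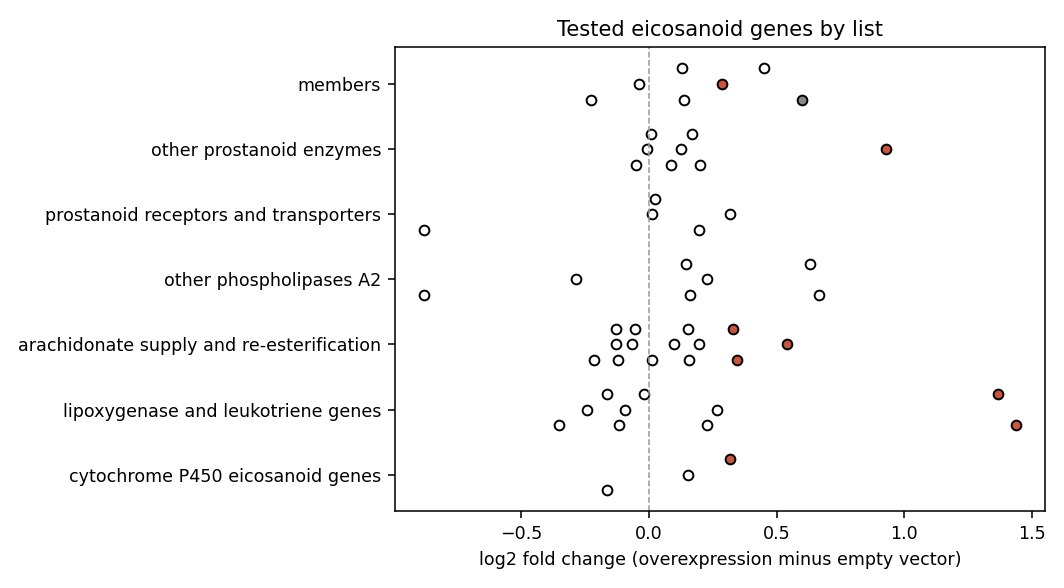
Log2 fold change of overexpression minus empty vector for each tested gene, by list, with called genes in red, other genes in white and PTGS1 in grey. The 3 points farthest to the right are ALOX15 at 1.43, ALOX12B at 1.37 and AKR1C3 at 0.93, and the vertical offset within a list has no meaning.

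The genes whose log2 CPM followed PTGS1 most closely over the 6 libraries, among 11861 genes whose mean log2 CPM reached 1 or more, were A2M, PDK4, COL1A1, LZTS2 and ARSB. Pearson's r with PTGS1 was 0.998 for A2M, a secreted protease inhibitor gene, 0.998 for PDK4, a pyruvate dehydrogenase kinase gene, and 0.996 for COL1A1, a collagen chain gene. It was 0.996 for LZTS2 and 0.995 for ARSB, the gene of a lysosomal sulfatase. All 5 were higher with overexpression, with log2 fold changes of 0.94, 1.02, 0.47, 0.20 and 0.63 in that order. The 6 libraries form 2 groups, so a gene that differs clearly between them tends to a high r, and 6.32% of the 11861 genes had an r above 0.9.

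**Figure D5:**
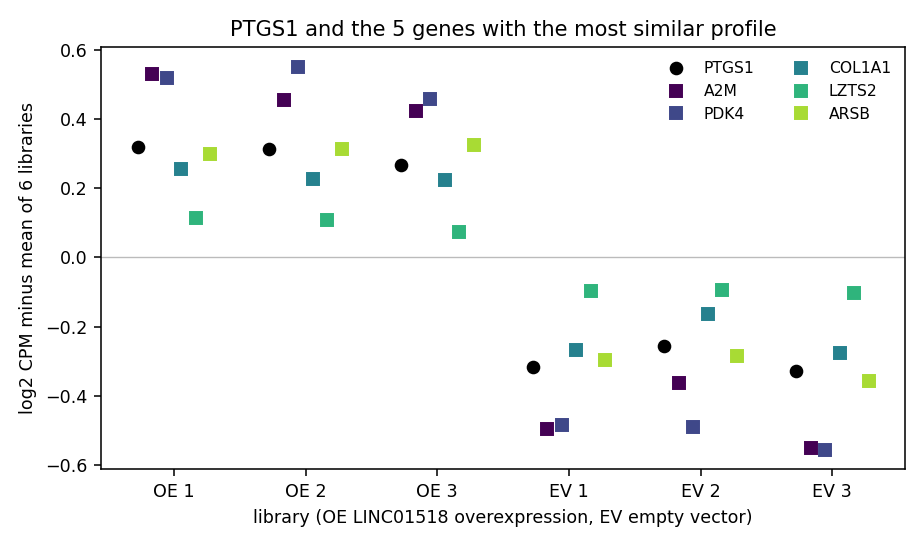
Log2 CPM of PTGS1 in black and of the 5 genes closest to it, each minus its own mean over the 6 libraries, with overexpression (OE) left of empty vector (EV). All 6 genes lie above their mean in the 3 overexpression libraries and below it in the 3 empty vector libraries.

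Markers of the labelled tissue and of other cells with prostaglandin synthesis were read beside these values. Of 8 luminal prostate markers, KLK3, KLK2, TMPRSS2 and FOLH1 had 0 counts in all 6 libraries, and the rest summed to 34.5 to 37.9 CPM with overexpression and 31.7 to 36.4 CPM with empty vector. Of 6 platelet and megakaryocyte markers, PF4, PPBP and GP9 had 0 counts in all 6 libraries, and the list summed to 20.7 to 27.5 CPM with overexpression and 22.1 to 28.0 CPM with empty vector. Macrophage markers (CD163, AIF1 and MARCO at 0 in all 6 libraries) summed to 2.62 to 3.58 CPM with overexpression and 3.001 to 3.10 CPM with empty vector, and mast cell markers to 0 to 0.203 CPM with overexpression and 0 to 0.146 CPM with empty vector. Endothelial markers (KDR at 0) summed to 7.34 to 9.67 CPM with overexpression and 8.42 to 8.85 CPM with empty vector, and smooth muscle markers (CNN1 at 0) to 28.2 to 31.0 CPM with overexpression and 26.3 to 29.7 CPM with empty vector. Fibroblast markers (LUM and PDGFRA at 0) summed to 4.85 to 5.93 CPM with overexpression and 3.95 to 4.66 CPM with empty vector. Of the 5, 2 were tested and 0 called with edgeR. An unadjusted p under 0.05 was found for 1 of these 2, against 23.6% of all genes tested. DCN overlapped between groups, at 4.04 to 4.50 CPM with overexpression and 3.48 to 4.22 CPM with empty vector, and COL1A2 had 0 to 2 counts per library. COL3A1, a fibroblast marker and collagen chain gene, had 53, 32 and 52 counts with overexpression, against 18, 6 and 18 with empty vector. Its log2 fold change of 1.73 (SE 0.423) missed the threshold with edgeR (adjusted p = 0.0562) and passed it with DESeq2 (0.0208) and with edgeR and no count filter (0.0471), over a range of 0.0208 to 0.158 in 16 alternatives. Of 4 epithelial markers, KRT8 and KRT18 made up nearly all of a sum of 2688 to 2856 CPM with overexpression and 2222 to 2499 CPM with empty vector. EPCAM was close to absent, at 9, 23 and 21 counts with overexpression against 10, 12 and 20 with empty vector, and CDH1 was low, at 94, 74 and 65 counts with overexpression against 66, 64 and 66 with empty vector. KRT8, which overlaps KRT18 on the opposite strand, was called higher, at 1670 ± 46.2 CPM with overexpression and 1363 ± 62.1 CPM with empty vector (SD, n = 3 each, edgeR adjusted p = 0.0187). It lost that call in 4 of the 6 fits without 1 library, with adjusted p of 0.0787, 0.0625 and 0.0633 without overexpression replicate 1, 2 or 3 and 0.0689 without empty vector replicate 2. The call of KRT8 was also lost in the fit on unfiltered TPM (0.0609, limma-trend) and with a replicate block (0.0683, edgeR). KRT8, COL3A1 and the fibroblast sum that includes COL3A1 moved with PTGS1, and their part in the PTGS1 difference was not tested.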

How the data were processed

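The deposited counts were whole numbers per gene with no normalization by the authors, and all main tests used them. The authors' deposited TPM, scaled to gene length and depth, served for levels between genes and for alternatives. Per the submitters' processing notes, Trimmomatic 0.36, HISAT2, featureCounts of Subread 1.5.1 and DESeq were used with build GRCh38. For the annotation release, the strand setting and the tool behind the TPM, the sources used here give nothing.

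Symbols were matched for 20148 of 20263 Ensembl identifiers from a gene name table, and positions came from GENCODE release 29 (GRCh38). All columns were assigned by name, and replicate numbers were not used as pairs. The members and gene lists were chosen with earlier results of these data known. The text names all members, each list gene called, each list's most abundant gene by TPM, markers called or at 0 and the 5 genes closest to PTGS1; other genes named were chosen after their values were seen.

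In R 4.3.3, edgeR 4.0.16 kept genes by filterByExpr (minimum count 10, minimum total 15), which left 13543, and scaled libraries by TMM. A robust quasi-likelihood F test was run on all 6 libraries with group as the single covariate, with Benjamini-Hochberg adjustment over all genes tested and a threshold of 0.05. Fold changes are overexpression over empty vector, and SE is the log2 fold change divided by the square root of F. Alternatives were RLE, upper-quartile and library-size scaling, no count filter, 50 counts in 3 libraries, DESeq2 1.42.0, limma-voom and limma-trend (limma 3.58.1) on log2(TPM + 0.1) or log2(TPM + 1), a replicate block and leaving out each library. On counts simulated for the 13543 genes of this comparison, edgeR recovered 6% of 50 genes changed 1.25-fold, about the size of the PTGR1 difference, 50% at 1.5-fold, 76% at 2-fold and 98% at 4-fold, and called 9 of 13343 unchanged genes.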

Additional observations from a re-analysis of the deposited data

How the results depend on the processing

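Over all genes, edgeR called 759. DESeq2 called 1319, limma-trend on log2(TPM + 0.1), on log2(TPM + 1) and on TPM with no filter called 199, 210 and 153, and leaving out 1 library gave 193 to 458. RLE, upper-quartile and library-size scaling, both count filters and limma-voom stayed between 623 and 787, but with library size only 346 were higher and 382 lower, against 484 and 275 with TMM. Of the 6 members tested beside PTGS1, 1 was called, against 2 with DESeq2, 0 in each of the 3 TPM fits and 0 to 1 without 1 library. Of the genes of the 6 lists, 7 were called, against 0, 1 and 0 in the 3 TPM fits in the order above and 1 to 3 without 1 library. The causes were not tested, though a fit with fewer libraries detects less. None of the 7 members tested and the 7 list genes called changed direction under the 17 alternatives run (16 for ALOX12B, which the stricter count filter removed). PTGIS, TBXAS1 and HPGD were not compared across alternatives. With the replicate number as a block, 232 genes, 0 of the members and 3 list genes were called. Same-numbered libraries correlated at 0.0367, 0.0547 and 0.0449 in their deviations from the group means. Each library correlated best with its own number, but these correlations were small. With 3 libraries per group few matchings are possible and 1 of them must come out best. This therefore cannot tell whether the numbers mark pairs, which the labels do not state. Depth limited PTGIS, TBXAS1 and HPGD, where no difference could be detected.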
